A study of Homo sapiens with 6 samples.

Results

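Skipped-exon usage and read levels were examined for genes that make cholesterol or set how much of it a cell makes and takes up: HMGCS1, MVK, IDI1 and SQLE (enzymes), SREBF1 and SREBF2 (transcription factors), and INSIG1 and INSIG2 (sterol sensors of the endoplasmic reticulum). The measurements come from RNA sequencing of MDA-LM2, a line selected from MDA-MB-231 breast cancer cells for metastasis to the lung, 48 h after transfection of small interfering RNAs (siRNAs). All 3 groups were cultures of this line transfected with a lipid reagent: siCtrl received a control siRNA, siSNRPA1 siRNAs against SNRPA1, which encodes the U2 A' protein of the spliceosome, and siSNRPB siRNA against SNRPB, which encodes the SmB/B' core proteins of the spliceosomal particles. The labels list 2 siCtrl, 3 siSNRPA1 and 1 siSNRPB libraries, without saying which siRNA went into which library or whether the cultures were separate. The design text names 3 siRNAs for SNRPA1 and 2 for SNRPB, where 1 library is listed, and once writes SNRPB2. SNRPB is used here, following the labels. The authors deposited 1 table per group. Libraries of a group are therefore pooled, no value has a replicate error, and each test compares the reads of 2 pools and not the conditions.

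Of the 8 listed genes, 7 held at least 1 skipped-exon event whose middle exon lay on the gene's own strand in GENCODE 29, and SQLE, the squalene epoxidase, held none. The 7 genes had 25 events, all listed in all 3 pools, and these described 20 exons of the 40658 in the series. The pools held 5707839 (siCtrl), 7831446 (siSNRPA1) and 3396043 (siSNRPB) informative reads, that is, reads compatible with keeping the exon or with skipping it, but not with both. Each targeted gene was low in its own knockdown pool: SNRPA1 had 118 reads per 1000000 in siCtrl and 21.9 in siSNRPA1, and SNRPB 247 in siCtrl and 30.6 in siSNRPB. Of 8 genes expected in this mesenchymal-like line 5 had an event and all had reads in every pool, CD44, FOSL1 and ITGB1 among them. Of the 8 genes expected to be low 6 had an event, and ESR1, PGR, CDH1, ESRP1 and GRHL2 lay between 0 and 2.75 reads per 1000000, while the keratin gene KRT8 lay between 800.1 and 870.3.

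Cholesterol is built from acetyl-CoA. HMG-CoA synthase, encoded by HMGCS1, acts at an early step, mevalonate kinase (MVK) phosphorylates mevalonate further on, and IDI1 isomerises the isoprene unit from which squalene and then sterols are assembled. When sterols are low, SCAP carries the SREBP proteins, encoded by SREBF1 and SREBF2, to the Golgi, where they are cut and released to switch on these same enzymes and the uptake of lipoproteins. When sterols are high, INSIG1 and INSIG2 hold SCAP in the endoplasmic reticulum. INSIG1 is itself switched on by the SREBPs.

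The coding exons of INSIG2 and SREBF1 whose inclusion passed the test are shown here as spliced RNA copied into DNA letters, 5′ to 3′, from GENCODE 29 transcripts on hg38. Capitals mark the skipped exon, and the lower-case letters are the last 30 bases of the exon before it and the first 30 of the exon after it. The INSIG2 exon is 100 nt long (chr2:118107090-118107189, plus strand) and the SREBF1 exon 90 nt (chr17:17823518-17823607, minus strand), so that leaving out the first shifts the reading frame and leaving out the second does not.
INSIG2 with the exon: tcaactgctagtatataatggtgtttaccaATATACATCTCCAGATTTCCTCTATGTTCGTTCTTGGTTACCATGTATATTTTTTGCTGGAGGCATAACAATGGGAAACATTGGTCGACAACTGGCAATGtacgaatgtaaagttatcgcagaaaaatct
INSIG2 without the exon: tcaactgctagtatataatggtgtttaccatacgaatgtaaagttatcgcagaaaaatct
SREBF1 with the exon: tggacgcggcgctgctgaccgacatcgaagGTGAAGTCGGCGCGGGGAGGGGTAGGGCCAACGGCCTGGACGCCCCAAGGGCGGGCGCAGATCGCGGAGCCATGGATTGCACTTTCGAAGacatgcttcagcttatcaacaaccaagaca
SREBF1 without the exon: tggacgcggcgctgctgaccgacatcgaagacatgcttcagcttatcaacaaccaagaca
The INSIG2 exon had a GC content of 39% and the SREBF1 exon 68.9%. The remaining exons that passed are overlapping forms of an HMGCS1 exon and are described by position only. The 59-nt form lies in the 5′ UTR, and the 79-nt form matches no annotated exon.

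An inclusion level is the authors' estimate of the share of transcripts that keep the exon, from 0 to 1, and the bounds beside it are those of the authors' interval, whose width is not stated. Testing an exon required 20 or more informative reads per pool and, over the 2 pools together, 5 or more reads of either kind (inclusion, exclusion). It passed at an adjusted p under 0.05 (two-sided Fisher's exact test on the reads, Benjamini-Hochberg over all tested exons of all genes) if the level also differed by 0.1 or more, with the same sign as the read shares. For inclusion, "fell" and "rose" are used in this sense alone. The reads carry no molecular identifiers, so all intervals and tests cover counting error only. The inclusion level draws on reads in the flanking exons too, and need not equal the percentage of inclusion reads.

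In the siSNRPA1 pool, 3 of 8 tested exons of these genes fell against siCtrl and 0 rose: 2 overlapping forms of the HMGCS1 leader exon and the INSIG2 coding exon. Over all 6459 exons tested in this comparison, 12.8% fell and 4.18% rose. The median level difference was -0.045 over the 8 exons and -0.02 over all tested exons. In the siSNRPB pool 4 exons had reads enough for the test, of which the same 2 forms of the HMGCS1 exon fell and the SREBF1 coding exon rose. Over the 4244 exons tested there, 16.7% fell and 4.62% rose, and the median was -0.285 over the 4 exons and -0.01 over all. The medians over these genes count both forms of the HMGCS1 exon. In siSNRPB these forms differed by -0.59 and -0.50, and the MVK and SREBF1 exons by -0.07 and 0.14. Both comparisons use the same siCtrl pool, so their values are not independent of each other. Between the knockdown pools 6 exons were tested and 0 passed, where 14.7% of 5082 exons passed in either direction, with medians of 0.025 and 0.

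**Figure D1:**
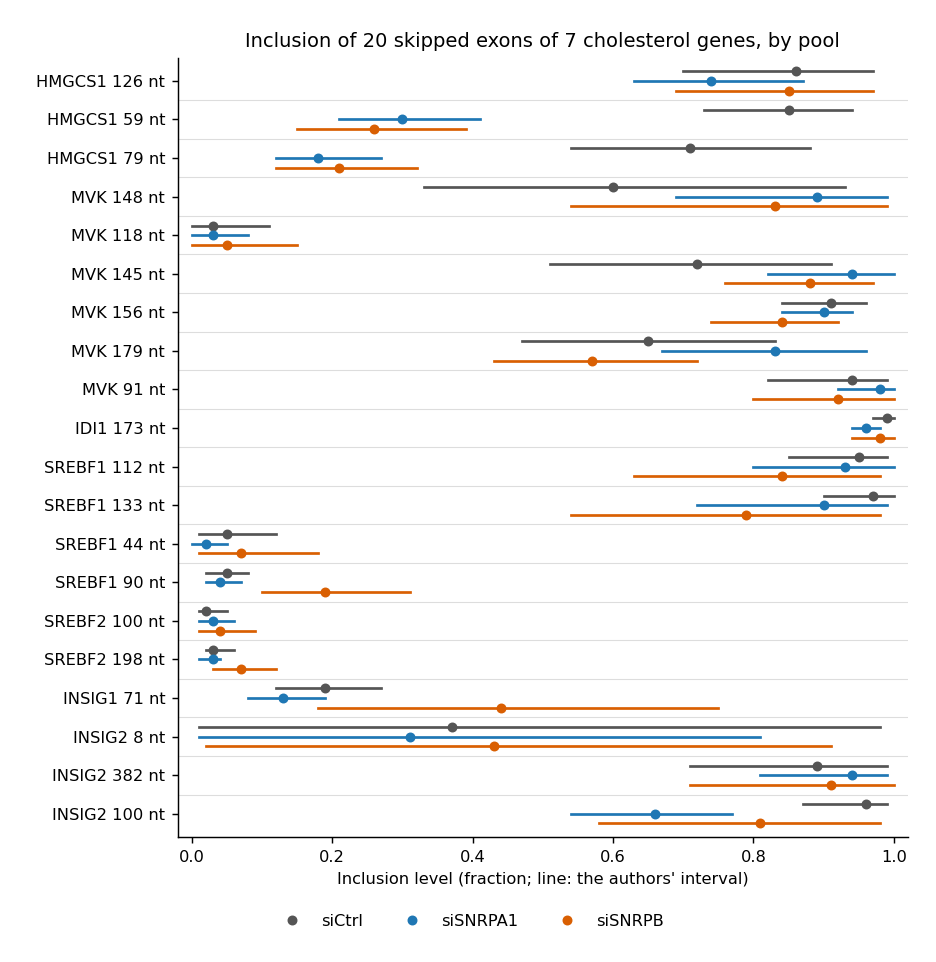
Inclusion level (x axis, a fraction from 0 to 1) of each of the 20 skipped exons (y axis, gene and exon length in nt), with a point per pool and a line for the authors' interval. The forms of the HMGCS1 leader exon (59 and 79 nt) stand at 0.85 and 0.71 in siCtrl and between 0.18 and 0.30 in the knockdown pools, with no overlap of the intervals.

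HMGCS1 carried the largest differences. Its 59-nt exon (chr5:43307766-43307824, minus strand) lies wholly in the 5′ UTR, as the second of 11 exons of the annotated principal transcript (ENST00000325110.10). The inclusion level was 0.85 (0.73 to 0.94) in siCtrl, 0.30 (0.21 to 0.41) in siSNRPA1 and 0.26 (0.15 to 0.39) in siSNRPB. The siCtrl pool was high and both knockdown pools were low, and the siCtrl interval met neither of theirs. Inclusion reads were 55 against 2 exclusion reads in siCtrl, 31 against 14 in siSNRPA1 and 15 against 14 in siSNRPB. That is 96.5% (95% Wilson interval 88.1 to 99.0%), 68.9% (54.3 to 80.5%) and 51.7% (34.4 to 68.6%) of the informative reads. The share of inclusion reads was thus highest in siCtrl and lowest in siSNRPB, and it lay above the inclusion level in every pool.

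The share of inclusion reads of the 59-nt exon fell by 27.6 percentage points in siSNRPA1 (95% interval of the difference -42.4 to -13.3; adjusted p = 0.001667, Fisher's exact test). In siSNRPB it fell by 44.8 points (-62.3 to -25.9; adjusted p = 2.181e-05, Fisher's exact test). On the inclusion level the differences were -0.55 and -0.59. Counted from the largest fall, the first ranked 21 of 6459 tested exons and the second 14 of 4244. Between the knockdown pools the share differed by -17.2 points, with an interval from -38.0 to 5.13 and an adjusted p of 0.2832 by Fisher's exact test, so a difference between them was neither detected nor excluded. In the authors' deposited table the Bayes factor of this exon, the evidence for a difference over that for none, was 1e+12 in both comparisons. With all reads divided by 2 the siSNRPA1 call was lost (adjusted p = 0.08291, Fisher's exact test).

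The rule also found a 79-nt form of this exon, 43307766 to 43307844, which shares the 59 bases and most of its reads and matches no annotated exon. Its levels were 0.71 in siCtrl, 0.18 in siSNRPA1 and 0.21 in siSNRPB, with inclusion and exclusion reads of 50 and 2, 23 and 14, and 15 and 14. It fell in both knockdown pools (adjusted p = 0.0005794 and 4.372e-05, Fisher's exact test). These are a repeat of the 59-nt result and no second one, as 2 of the 3 exons that fell in siSNRPA1 are forms of 1 leader exon.

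HMGCS1 has more than 1 annotated first exon, and the exclusion reads belonged to 1 of them. All 2, 14 and 14 exclusion reads joined the first exon at 43313356 to 43313512 to the exon at 43298518 to 43298975, which holds the start codon. The event with the other first exon, 43313022 to 43313224, had 0 exclusion reads in every pool, beside 49, 22 and 15 inclusion reads for the 59-nt form in siCtrl, siSNRPA1 and siSNRPB. The authors' inclusion level of that event was nevertheless 0.90, 0.29 and 0.40. Reads that fit both isoforms numbered 441, 820 and 411 in the event with exclusion reads, so the inclusion reads were few beside the reads from the flanking exons in the knockdown pools.

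The principal HMGCS1 transcript uses the same splice site as the first exon with the exclusion reads. Its annotated leader is 207 nt long and would be 148 nt without the 59-nt exon. The exon holds 0 ATG triplets, and the 520 codons of the protein lie downstream of it in both forms. A coding exon of the same gene, 126 nt long (chr5:43298009-43298134), stood at 0.86, 0.74 and 0.85 and had no exclusion read beside 97, 153 and 85 inclusion reads. A count of 0 allows exclusion shares of up to 3.09%, 1.96% and 3.53% of the informative reads (3 reads of the total), and this exon could not be tested.

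**Figure D2:**
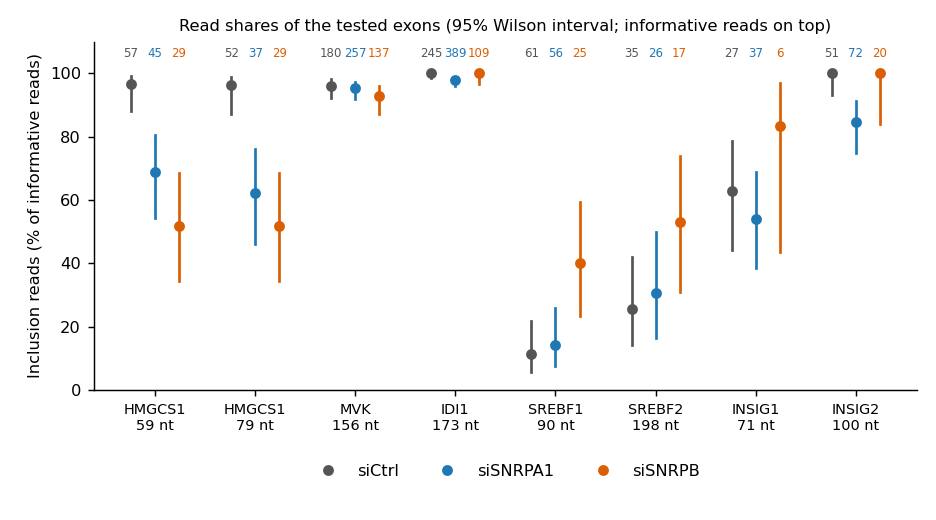
Percent of informative reads that were inclusion reads (y axis) in the exons tested in at least 1 comparison (x axis), with a point per pool, a 95% Wilson interval as the line and the number of informative reads above. The HMGCS1 forms stand at 96.2 and 96.5% in siCtrl and between 51.7 and 68.9% in the knockdown pools, and the 100-nt INSIG2 exon has exclusion reads in siSNRPA1 and none in the other pools.

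MVK had the most exons of these genes, 6 forms along the gene on chromosome 12. Only the 156-nt coding exon (chr12:109581395-109581550, plus strand) could be tested, and it did not pass. It had the most informative reads of the MVK exons and stood at 0.91, 0.90 and 0.84 in siCtrl, siSNRPA1 and siSNRPB. Exclusion reads were 7 of 180, 12 of 257 and 10 of 137 informative reads, so a few percent of reads skipped it in every pool. The share of inclusion reads differed by -0.78 points in siSNRPA1 (-4.65 to 3.61; adjusted p = 0.9067, Fisher's exact test) and by -3.41 points in siSNRPB (-9.37 to 1.71; adjusted p = 0.3227, Fisher's exact test). At this depth a fall of several points in siSNRPB was not detectable.

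The MVK exons of 148, 145, 179 and 91 nt had inclusion reads only in the event kept for each. Another event of the 145-nt exon, which skips to the exon at 109586022 to 109586125, had 3 exclusion reads beside 67 inclusion reads in siSNRPA1 and 0 exclusion reads in the other pools. For the 148-nt exon the level was 0.60 in siCtrl, 0.89 in siSNRPA1 and 0.83 in siSNRPB, and for the 145-nt exon 0.72, 0.94 and 0.88. These 2 look higher in the knockdown pools on the level, yet inclusion reads were 21, 52 and 21 of as many informative reads for the first and 52, 104 and 55 for the second. The authors' deposited table gave them Bayes factors of 0.96 or 1.44 and of 0.82 or 1.95, and they could not be tested. The 179-nt and 91-nt exons are forms with the same end and stood at 0.65, 0.83 and 0.57 and at 0.94, 0.98 and 0.92. A 118-nt coding exon of a minor transcript was near the bottom of the scale, at 0.03, 0.03 and 0.05, with 17, 19 and 13 informative reads.

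The IDI1 exon of 173 nt (chr10:1043999-1044171, minus strand) was included nearly always, at 0.99, 0.96 and 0.98. Inclusion reads were 245 of 245 in siCtrl, 381 of 389 in siSNRPA1 and 109 of 109 in siSNRPB, so all 8 exclusion reads came from the siSNRPA1 pool. The difference of -2.06 points (-4.01 to -0.21) in siSNRPA1 did not pass (adjusted p = 0.0715, Fisher's exact test), and its level difference of -0.03 was under the minimum. Another event of this exon, with the flanking exon at 1048264 to 1048883, had 0 exclusion reads in every pool. Its inclusion reads were 244, 374 and 109 in siCtrl, siSNRPA1 and siSNRPB, at levels of 0.99, 1 and 0.98. The gene IDI2-AS1 overlaps this exon on the other strand, and no source used here gives the strand setting of the counting, so reads of the pair cannot be told apart.

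Among the transcription factor genes, SREBF1 held the exon that rose. SREBF1 encodes SREBP-1, whose targets are weighted towards fatty acid synthesis, and SREBF2 encodes SREBP-2, which acts mainly on the cholesterol enzymes. The 90-nt exon printed above is the second of 20 in its transcript and joins the exon at 17836727 to 17837011 to that at 17820090 to 17820521. Its level was 0.05 (0.02 to 0.08) in siCtrl, 0.04 (0.02 to 0.07) in siSNRPA1 and 0.19 (0.10 to 0.31) in siSNRPB. Most transcripts left it out in every pool, and the siSNRPB pool stood above the other 2 with an interval that met neither.

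Inclusion reads of the 90-nt SREBF1 exon were 7 of 61 in siCtrl, 8 of 56 in siSNRPA1 and 10 of 25 in siSNRPB, or 11.5%, 14.3% and 40.0%. In siSNRPB the share was 28.5 points higher than in siCtrl (8.96 to 48.6; adjusted p = 0.01952, Fisher's exact test) and the level 0.14 higher. In siSNRPA1 the share differed by 2.81 points (-9.63 to 15.7) and the level by -0.01, with an adjusted p of 0.8839 by Fisher's exact test. Between the knockdown pools the level difference of 0.15 did not pass (25.7 points, 5.55 to 46.2; adjusted p = 0.06392, Fisher's exact test), so the rise is not shown to differ between the knockdowns. In the authors' deposited table the Bayes factor was 11.92 in siSNRPB and 0.05 in siSNRPA1. The rise rests on 25 informative reads, and with the reads thinned to the smallest pool its adjusted p was 0.07967 by Fisher's exact test.

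The exon keeps the reading frame. In the annotated transcript it adds 30 codons after the first 30 codons of the long SREBF1 protein. That protein has 1177 codons with the exon and 1147 without it. The exon itself holds 1 ATG triplet. Whether its inclusion reads came from transcripts that start at this exon, and not at the exon before it, was not tested. Of the other SREBF1 exons, those of 112 and 133 nt near the end of the gene had no exclusion read in any pool, with levels from 0.84 to 0.95 and from 0.79 to 0.97. The 44-nt exon stood between 0.02 and 0.07 with 15, 16 and 9 informative reads. In SREBF2 the 198-nt exon (chr22:41904535-41904732, plus strand) stood at 0.03, 0.03 and 0.07, with 9 of 35, 8 of 26 and 9 of 17 informative reads for inclusion. It was tested in siSNRPA1 alone and did not pass (5.06 points, -16.7 to 27.5; adjusted p = 0.8786, Fisher's exact test). The 100-nt SREBF2 exon, at 0.02, 0.03 and 0.04, had 19, 11 and 7 informative reads.

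Among the sterol sensors, the 100-nt exon of INSIG2 fell in siSNRPA1. Its level was 0.96 (0.87 to 0.99) in siCtrl, 0.66 (0.54 to 0.77) in siSNRPA1 and 0.81 (0.58 to 0.98) in siSNRPB. The siCtrl and siSNRPA1 intervals did not meet, and the wide siSNRPB interval met both. Inclusion reads were 51 of 51, 61 of 72 and 20 of 20, so that all 11 reads that skipped the exon were in the siSNRPA1 pool.

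In siSNRPA1 the share of inclusion reads of the INSIG2 exon fell by 15.3 points (-25.3 to -5.70; adjusted p = 0.01308, Fisher's exact test), and the level by 0.30. Against siCtrl the exon was not tested in siSNRPB, where 0 of 20 informative reads skipped it, which allows a share of up to 15.0%. The difference between the knockdown pools was 15.3 points (-2.11 to 25.3; adjusted p = 0.2305, Fisher's exact test), so the fall is not shown to differ between them. The authors' deposited table gave a Bayes factor of 2103.27 for siSNRPA1 and 0.51 for siSNRPB. Reads that fit neither isoform made up 2.28% to 3.95% of the reads of this event, against a median event of 68.8% to 79.9%. With all reads divided by 2 the adjusted p was 0.2131 by Fisher's exact test.

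Without this exon the annotated INSIG2 frame would keep 178 of 225 codons and, after 1 codon split by the new junction, run through 26 codons of another frame, to a total of 205. The new stop would lie in the last exon, 79 nt after the last exon junction. The other INSIG2 exons gave little: the 382-nt exon had inclusion reads only (77, 138 and 45, at levels of 0.89, 0.94 and 0.91), and an 8-nt form of it had 0 informative reads. The single INSIG1 exon, 71 nt long (chr7:155303825-155303895, plus strand), stood at 0.19 (0.12 to 0.27), 0.13 (0.08 to 0.19) and 0.44 (0.18 to 0.75). The siSNRPB value rests on 6 informative reads and was not tested, and in siSNRPA1 the difference of -0.06 did not pass (-8.91 points, -31.0 to 15.0; adjusted p = 0.7444, Fisher's exact test).

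**Figure D3:**
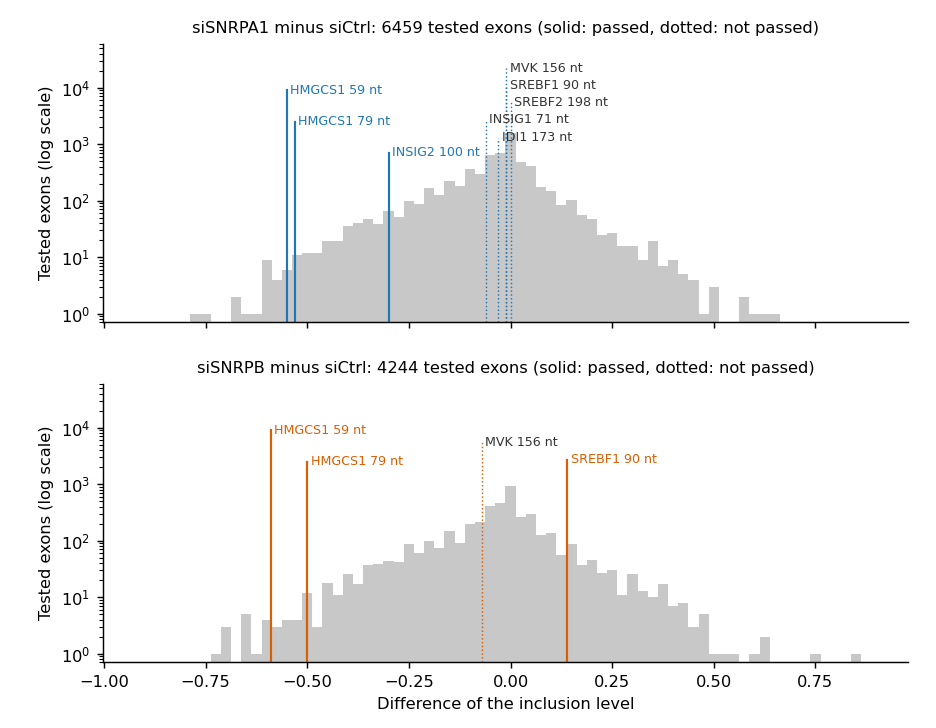
Number of tested exons (y axis, log scale) by difference of the inclusion level from siCtrl (x axis), for siSNRPA1 above and siSNRPB below, with lines at the tested exons of the cholesterol genes. Line heights only keep the labels apart, the HMGCS1 lines lie between -0.50 and -0.59 in the far left tail, and the SREBF1 line lies at 0.14 on the right in siSNRPB alone.

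In the event kept per exon, 8 of the 20 exons had inclusion reads and no exclusion read in any pool. Against siCtrl, 8 exons in siSNRPA1 and 10 in siSNRPB had reads enough but no exclusion read in either pool, and 4 and 6 had too few informative reads. A rule set here on the authors' values asked for a Bayes factor of at least 10 and a difference of at least 0.1. By it 3 of the 20 exons passed in each comparison, the same exons as by Fisher's exact test. In the authors' deposited tables that rule was passed by 7.18% of all exons in siSNRPA1 and 7.87% in siSNRPB.

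Exons of other genes with 3 levels most like those of the members were sought in the 13931 exons that had 20 or more such reads in every pool. Nearest to the 59-nt HMGCS1 exon was a 51-nt exon of SRSF10, a splicing factor (0.87, 0.33 and 0.29; distance 0.0469), followed by exons of NBN and HARS2. Nearest to the 79-nt form were exons of TYW1B, PIGA and AP1B1. For the INSIG2 exon the nearest were in NXF1 (0.96, 0.68 and 0.79), PARP8 and SDR42E1, all at a distance of 0.02828, and for the SREBF1 exon in IL6ST (0.06, 0.05 and 0.19; distance 0.01414), SPDL1 and SPG7. The likeness is over 3 pools only, 1 of which all differences share.

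Read levels of the genes were set per 1000000 reads that fit an isoform of any event, as a description with no test. A level is a share of the pool's reads and does not give the amount of RNA per cell. Exact 95% binomial intervals are given for counting error. The reads of all kept events of a gene were summed, so a read shared by several events was counted more than once. In HMGCS1 the 441 siCtrl reads that fit both isoforms entered with the 59-nt and again with the 79-nt form. The intervals take all reads as separate and are too narrow for genes whose events share reads, HMGCS1 and MVK among them. The INSIG1 level was 131 in siCtrl, 144 in siSNRPA1 and 33.7 in siSNRPB, from 2434, 3955 and 386 reads. All of these reads belong to the event of the 71-nt exon, and 2407, 3918 and 380 of them fit both isoforms. The INSIG1 level is thus mainly the coverage of the flanking exons of a single event. The siSNRPB pool was thus the low one, at 0.257 of siCtrl (0.230 to 0.286), while siSNRPA1 stood at 1.10 (1.05 to 1.16). In siSNRPB 1 of the 7 genes, INSIG1, was past 2-fold. Over all 9936 genes 16.2% were lower by more than 2-fold and 6.64% had a ratio as low as that of INSIG1. These shares take the reads of an event not listed in a pool as 0. The siSNRPB pool listed 38460 events and the siCtrl pool 46252.

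The other 6 genes stayed within 2-fold in both pools. The enzyme HMGCS1 stood at 84.9 in siCtrl, 103 in siSNRPA1 and 124 in siSNRPB, or 1.22 (1.14 to 1.29) and 1.46 (1.36 to 1.57) of siCtrl. MVK stood at 0.990 (0.909 to 1.08) and 1.54 (1.40 to 1.69), and IDI1 at 1.00 (0.888 to 1.13) and 0.759 (0.643 to 0.893). In the siSNRPB pool HMGCS1 and MVK were therefore above siCtrl, though their intervals are too narrow to give the counting error. INSIG1 and IDI1, with a single kept event each, were below siCtrl beyond counting error. SREBF1 was lower than siCtrl in both pools, at 0.790 (0.746 to 0.837) and 0.636 (0.587 to 0.688), and so was SREBF2, at 0.806 (0.744 to 0.873) and 0.811 (0.733 to 0.898). INSIG2 stood at 1.28 (1.17 to 1.41) and 0.934 (0.826 to 1.06).

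In siSNRPA1 0 of the 7 genes were past 2-fold, where 7.76% of 10787 genes were. The median ratio in siSNRPA1 was 1.00 over the 7 genes and 0.959 over all genes, and in siSNRPB 0.811 and 0.902. From inclusion-only and exclusion-only reads, SREBF2 stood at 0.498 of siCtrl in siSNRPA1, just past 2-fold. This SREBF2 ratio has no interval. It rests on few such reads, 11 and 26 for the 100-nt and 198-nt exons in siSNRPA1 and 19 and 35 in siCtrl. By the same reads HMGCS1 stood at 0.829 in siSNRPA1 in place of 1.22 and INSIG1 at 0.996 in place of 1.10. INSIG1 had too few such reads for a value in siSNRPB.

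**Figure D4:**
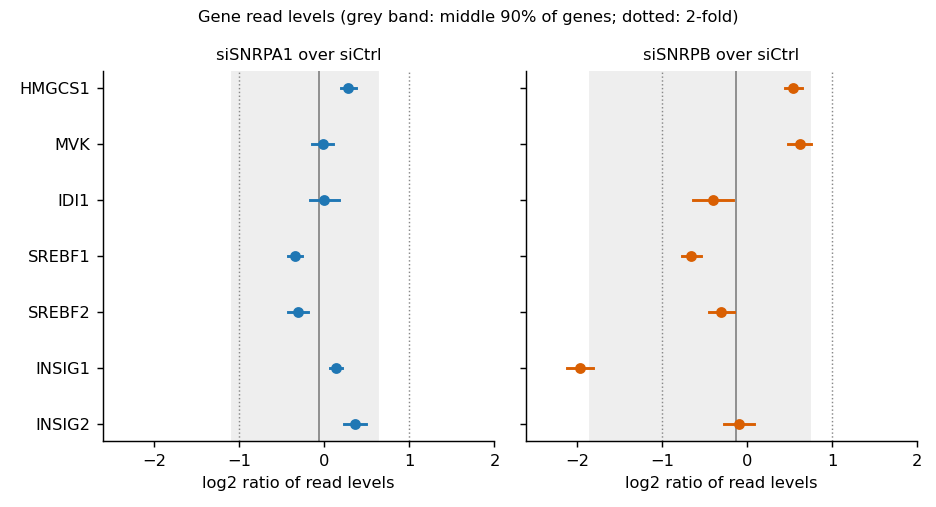
Log2 ratio of the gene read level to siCtrl (x axis) for the 7 genes (y axis), in siSNRPA1 on the left and siSNRPB on the right, with exact 95% binomial intervals for counting error. These intervals are too narrow for genes whose events share reads. The grey band spans the middle 90% of genes with a ratio above 0, the solid line is their median and dotted lines mark 2-fold. INSIG1 in siSNRPB lies beyond that band on the low side, while 6.64% of all genes had a ratio as low.

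The rest of the pathway was covered by 5 lists of 126 other genes, of which 88 had an event and 342 exons. In siSNRPA1 4 of their 63 tested exons fell and 5 rose, with a median difference of -0.02. In siSNRPB 8 of 46 fell and 2 rose, with a median of -0.02, and between the knockdown pools 9 of 57 were lower in siSNRPB and 1 higher. The shares that passed in either direction were 14.3%, 21.7% and 17.5%, beside 17.0%, 21.3% and 14.7% over all tested exons. By direction, 12.8% of all tested exons fell and 4.18% rose in siSNRPA1 and 16.7% and 4.62% in siSNRPB, and between the knockdown pools 421 of 5082 were lower in siSNRPB and 324 higher. Single lists ranged from 0% passing to 38.1%, the latter for the uptake, trafficking, storage and export genes in siSNRPB.

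Among the other synthesis enzymes, 2 of 10 tested exons fell in siSNRPA1 and 1 of 7 in siSNRPB. A 67-nt exon in the 5′ UTR of NSDHL, a sterol dehydrogenase of the late pathway, went from a level of 0.65 in siCtrl to 0.16 in siSNRPA1 (23 of 27 and 8 of 24 reads for inclusion; adjusted p = 0.00176768, Fisher's exact test), and had 6 informative reads in siSNRPB at 0.09. A 142-nt exon of FDPS, the farnesyl diphosphate synthase, stood at 0.99, 0.99 and 0.88 and fell in siSNRPB, with 6 of 166 reads skipping it.

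Of the exons of genes that process or sense SREBPs, 1 of 12 rose in siSNRPA1, in NFYA, a transcription factor subunit that acts beside SREBPs, from 0.24 to 0.34. OARD1 overlaps it on the other strand. In siSNRPB 1 of 8 rose, in UBE2G2, a ubiquitin-conjugating enzyme of the endoplasmic reticulum, from 0.17 to 0.32. Of the exons of uptake, trafficking, storage and export genes, 2 of 23 fell and 3 rose in siSNRPA1, while 7 of 21 fell and 1 rose in siSNRPB.

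In that list the cholesterol carrier STARD3 had a 54-nt exon that rose in siSNRPA1, from 0.59 (28 of 35 informative reads for inclusion) to 0.90 (50 of 50), and the siSNRPB value of 0.57 rests on 10 informative reads, all for inclusion. Its 112-nt and 99-nt forms of another exon fell in siSNRPB, from 0.85 to 0.58 and from 0.88 to 0.61. Exons of STARD4, a soluble sterol carrier (0.33 to 0.57), and LRP8, a lipoprotein receptor (121 nt, 0.42 to 0.55), rose in siSNRPA1, while exons of OSBPL2 (0.13 to 0.01) and GRAMD1A (0.99 to 0.89) fell there. Their siSNRPB levels were 0.34, 0.69, 0.01 and 0.97 in this order, so the OSBPL2 exon stood equally low in both knockdown pools. In siSNRPB the largest fall of the list was in STARD3NL, from 0.86 to 0.43, and a 225-nt exon of LRP8 (0.98 to 0.77) and a 70-nt exon of SNX17 (0.79 to 0.60) also fell. The siSNRPA1 levels of these exons were 0.74, 0.97 and 0.58, so the SNX17 level was low in both knockdown pools. Reads that skipped the SNX17 exon were seen in siSNRPB alone. Exclusion reads were 0 beside 162 inclusion reads in siCtrl, 0 beside 152 in siSNRPA1 and 8 beside 70 in siSNRPB. Of the fatty acid genes, 1 of 8 exons rose in siSNRPA1, in FADS1 (0.05 to 0.17), which FADS2 overlaps on the other strand, and 0 of 6 passed in siSNRPB. Of the isoprenoid and prenylation genes 0 of 10 and 0 of 4 passed.

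The read levels of 3 of the 88 list genes were past 2-fold in siSNRPA1: NR1H3, which encodes the sterol receptor LXR-alpha, at 0.387 of siCtrl and ABCA1 at 0.459 were lower, and ABCG1 at 2.19 was higher, the last 2 from 13 to 42 reads a pool. Over all genes 7.76% were past 2-fold there. In siSNRPB 6 of 87 were lower, where 16.2% of all genes were, and 0 higher. NR1H3 stood at 0.210 of siCtrl there, and its level was 43.2 in siCtrl, 16.7 in siSNRPA1 and 9.07 in siSNRPB. DPAGT1 at 0.243, ICMT at 0.325, SYVN1 at 0.366 and UBE2G2 at 0.428 were the next, and the remaining gene of the 6, ACACB, had no event listed in that pool and counts as lower only because its reads were taken as 0. The 16.2% over all genes counts genes of this kind too.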

How the data were processed

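RNA of 6 libraries in 3 groups (2 siCtrl, 3 siSNRPA1, 1 siSNRPB) was sequenced after a stranded low-input total RNA protocol, per the labels. STAR 2.7 and the hg38 build appear in the submitters' processing notes. The columns are named as MISO names them. MISO's version and settings, the strand setting and the way libraries were pooled: not given in the sources used here. Per the file headers, the authors deposited per event the inclusion level, a fraction from 0 to 1 (posterior mean), its interval, and counts of reads by the isoforms they fit. The authors also deposited the change in inclusion level, a signed score within -1 and 1, and the Bayes factor, a ratio of evidence, for each knockdown against siCtrl. All columns of values were mapped (0 left unused).

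Genes were assigned on the same strand from GENCODE 29. The event with the most informative reads was kept per skipped exon. The tests, thresholds and levels are stated with the results. Fisher's exact test and the passing rule were tried on simulated reads, with the inclusion level set equal to the read share. The gene read levels were not simulated. Gene levels need at least 50 reads over both pools. Python 3.11.15, scipy 1.17.1, numpy 2.4.6, pandas 2.3.3 and matplotlib 3.10.9 were used. Every member exon is described, with full statistics where it passed. For the lists, up to 5 passing exons per list and comparison with the largest difference are named, and 1 of those exons is not reported here. The most alike exons are the 3 nearest of other genes by Euclidean distance of the 3 levels. The members and lists were chosen with earlier results of these data known. Alternatives were other read minimums, a larger difference, the read share as effect, reads divided by 2 or thinned, all events, the authors' Bayes factor and other level scalings. The tables of each group are pools, so no library could be left out.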

Additional observations from a re-analysis of the deposited data

Results flagged for a closer look

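Several exons of the pathway lists differed between the 2 knockdown pools themselves (siSNRPB minus siSNRPA1, Fisher's exact test with Benjamini-Hochberg adjustment over 5082 exons). The level difference was -0.31 for the 112-nt (adjusted p = 3.62375e-06, Fisher's exact test) and 99-nt (adjusted p = 1.17002e-06, Fisher's exact test) forms of 1 STARD3 exon, which share reads, and -0.31 for the 54-nt exon of STARD3NL. It was -0.23 for the 127-nt exon of STARD4, where siCtrl stood with siSNRPB (0.33, 0.57 and 0.34 in siCtrl, siSNRPA1 and siSNRPB), and -0.20 for the 225-nt exon of LRP8. It was -0.12 for the 120-nt exon of MED15, -0.11 for the 142-nt exon of FDPS and -0.10 for the 157-nt exon of C12orf49, a protein of SREBP processing. The INSIG1 read level stood at a ratio of 1.10 to siCtrl in siSNRPA1 and 0.257 in siSNRPB, and this difference was not tested. From inclusion-only and exclusion-only reads the siSNRPA1 ratio was 0.996, so its upward direction was not kept.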

How the results depend on the processing

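No paired analysis was possible because each group is 1 pooled table, and for the same reason no replicate could be left out. Of the 8 tested exons of the cholesterol genes, 3 passed in siSNRPA1, against 1 with a minimum of 50 informative reads, 0 with reads divided by 2 and 1 with reads thinned to the smallest pool. In siSNRPB 3 passed, against 0 with the minimum of 50 and 0 with reads divided by 2, where 1 exon stayed testable each time. The list exons that passed in siSNRPA1 numbered 9, against 5 with the minimum of 50, 3 with a difference of at least 0.2, 1 with reads divided by 2, 2 thinned and 28 by the authors' Bayes factor, which judges 340 exons in place of 63. In siSNRPB they numbered 10, against 4 with the larger difference, 3 with reads divided by 2 and 25 by the Bayes factor (327 exons in place of 46). Between the knockdown pools they numbered 10, against 5 and 3 with the first 2 of these. With inclusion-only and exclusion-only reads, 1 gene level was past 2-fold in siSNRPA1 in place of 0, and 0 in siSNRPB in place of 1, as INSIG1 had too few such reads. Where an exon could still be judged, 101 values of single exons stayed in direction and on their side of the threshold and 4 lost the call. These were HMGCS1 59 nt and INSIG2 in siSNRPA1 with reads divided by 2. The others were SREBF1 in siSNRPB with a difference of at least 0.2 and with thinned reads. Further calls were lost because the exon could no longer be tested. In siSNRPA1 this held for both HMGCS1 forms at the minimum of 50. It also held for the 79-nt form with reads divided by 2 or thinned, and for INSIG2 with thinned reads. In siSNRPB it held for all 3 calls at the minimum of 50 and with reads divided by 2. No difference that had passed reversed. With the read share as the effect, the sign turned for 2 differences that had not passed: SREBF1 in siSNRPA1 (0.028 in place of -0.01 on a scale of 0 to 1) and the 79-nt HMGCS1 form between the knockdown pools (-0.10 in place of 0.03). Of the single gene ratios, 29 stayed within their counting interval and 12 did not. Depth kept 6 of 20 exons from a test in siSNRPB and 4 in siSNRPA1.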
